A study of Mus musculus with 7 samples.

Results

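The 8 genes described here pattern the uterus or carry its hedgehog signal: the homeobox genes Hoxa10, Hoxa11, Hoxd9, Msx1 and Msx2, the hedgehog ligand gene Ihh, its receptor gene Ptch1 and the nuclear receptor gene Nr2f2. They were taken by name, and every probe set that named a single one of them was used on all 7 arrays. This gave 10 probe sets for 8 of the 8252 genes that the array named. A probe set is a group of short probes for a single transcript, and 9 of the 10 had a mean log2 signal above the floor of 145.9, the 40th percentile of all signals, to which lower signals were raised. All 8 genes had a probe set above the floor, and their brightest probe sets had no array under it.

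The series followed the uterus of C57Bl/6 mice after a single injection of dihydrotestosterone (DHT), an androgen that aromatase cannot turn into an estrogen. Females labelled as 10 to 11 weeks old had their ovaries removed, in the vehicle group as in every DHT group, and were killed 7 days later. DHT was given under the skin at 0.1 mg per mouse 1, 3, 6, 12, 18 or 24 h before death, and the vehicle group was killed 24 h after its injection. Uteri were pooled before RNA extraction, each of the 7 groups had 1 array, and the protocols name 10 mice without assigning them to pools. The growth protocol adds 4 weeks of acclimation, and the design text lists a 0.5 h group where the titles list 18 h, so the titles were followed. Nothing in the labels gives a second pool for any group, so the spread below is that between pools taken at different times. Vehicle was sampled only at 24 h, so at 1 to 18 h DHT cannot be told apart from the injection itself.

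Hox genes lie in clusters, and the order of the genes in a cluster follows the position along the body axis at which they act. In the female tract Hoxa10 and Hoxa11 mark the uterus and are needed for implantation and for the change of stroma into decidua, while Hoxd9 belongs to the more anterior group of the same system. Msx1 and Msx2 encode homeobox repressors that keep the uterus receptive and act in its epithelium and stroma. Ihh is secreted by the epithelium under the progesterone receptor and binds Ptch1 on stromal cells, which frees Smo and activates the Gli factors. Ptch1 and Gli1 are themselves hedgehog targets, and Nr2f2, which encodes COUP-TFII, is the stromal factor downstream of Ihh in the mouse uterus.

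Promoter sequences of the 8 genes were read from RefSeq on build GRCm38.p6 as the 250 bases before each annotated start, which gave 9 windows because Hoxa10 has 2 starts. The windows below belong to Hoxa11, which had the largest ratio to vehicle, and to the 4 genes whose late arrays all lay below their early arrays. Capitals mark the steroid receptor motif AGAACA in Hoxa11 and the GC box GGGCGG, on either strand, in the other 4. Windows of genes on the minus strand are printed as the gene is read.

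Hoxa11, chr6:52245811-52246060, minus strand: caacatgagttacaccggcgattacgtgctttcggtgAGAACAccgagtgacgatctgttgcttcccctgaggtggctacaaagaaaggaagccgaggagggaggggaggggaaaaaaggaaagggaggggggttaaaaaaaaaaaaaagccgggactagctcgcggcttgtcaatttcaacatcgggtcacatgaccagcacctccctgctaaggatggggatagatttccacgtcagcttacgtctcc

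Hoxd9, chr2:74697513-74697762, plus strand: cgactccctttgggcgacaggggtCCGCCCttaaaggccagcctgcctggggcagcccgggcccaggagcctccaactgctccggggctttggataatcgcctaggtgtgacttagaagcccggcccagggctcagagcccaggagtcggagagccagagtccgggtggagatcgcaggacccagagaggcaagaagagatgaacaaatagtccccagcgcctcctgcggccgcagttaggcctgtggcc

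Ihh, chr1:74951673-74951922, minus strand: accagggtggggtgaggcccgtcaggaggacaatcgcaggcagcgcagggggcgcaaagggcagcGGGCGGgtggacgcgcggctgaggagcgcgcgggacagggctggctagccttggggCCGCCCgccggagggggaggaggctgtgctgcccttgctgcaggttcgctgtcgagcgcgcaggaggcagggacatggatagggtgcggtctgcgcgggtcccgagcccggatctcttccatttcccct

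Msx1, chr5:37824586-37824835, minus strand: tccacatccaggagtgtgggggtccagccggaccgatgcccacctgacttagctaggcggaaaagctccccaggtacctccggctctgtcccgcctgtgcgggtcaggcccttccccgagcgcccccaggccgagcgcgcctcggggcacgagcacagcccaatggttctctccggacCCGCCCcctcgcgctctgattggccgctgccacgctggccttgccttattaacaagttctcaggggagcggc

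Msx2, chr13:53472781-53473030, minus strand: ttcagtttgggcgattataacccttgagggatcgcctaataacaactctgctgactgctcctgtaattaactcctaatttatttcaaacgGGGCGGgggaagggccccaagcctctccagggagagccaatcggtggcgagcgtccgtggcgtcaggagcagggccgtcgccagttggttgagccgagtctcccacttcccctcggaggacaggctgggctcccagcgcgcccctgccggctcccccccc

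The motif AGAACA, part of the sites that androgen and glucocorticoid receptors bind, was found in 1 of the 9 windows, that of Hoxa11, and in 16.1% of the 32851 windows in the table. The GC box GGGCGG, which Sp1 binds, was in 6 of the 9 windows and in 32.7% of all. The Gli site GACCACCCA was in 0 of the 9, Ptch1 included, and in 0.225% of all. Also in 0 of the 9 was AGAACA followed after 3 bases by TGTTCT, which 0.00913% of all windows held. The TATA box TATAAA was in 1, at a Hoxa10 start, on the strand opposite to the gene, against 12.4% of all windows. Both strands were searched, no matches overlapped, and a match describes letters only.

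None of the 8 genes was 2-fold from vehicle, with the higher signal at least 2 times the floor, at any time, and none passed the test between phases. The largest ratio was that of Hoxa11 at 6 h, 1.96-fold above vehicle. Among all 8421 probe sets above the floor, the share at least 2-fold from vehicle was 1.13%, 2.01% and 2.45% on the early arrays in time order and 3.14%, 2.41% and 1.92% on the late ones. The count of 0 of 8 genes at each time stands beside these small shares. At 1.5-fold, 0, 1 and 2 of the 8 genes were called on the early arrays in time order, beside 4.45%, 7.59% and 11.0% of probe sets. On the late arrays 3, 2 and 1 were, beside 13.5%, 9.20% and 8.53%.

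Early here means the 1, 3 and 6 h arrays and late means those from 12, 18 and 24 h. These phases, of 3 arrays each, and vehicle were compared in limma with p-values adjusted over the 8421 probe sets. Called at an adjusted p under 0.05 were 0.273% of probe sets between early and vehicle, 0.309% between late and vehicle and 0% between late and early, and 0 of the 8 genes each time. At an unadjusted p under 0.05 there were 2 of the 8 genes between early and vehicle (6.33% of all probe sets), 3 between late and vehicle (11.7%) and 4 between late and early (10.2%). In the early mean 7 of the 8 genes lay above vehicle, with a median log2 difference of 0.26, while 3183 of all 6324 genes did. In the late mean 4 lay above and 4 below, with a median of 0.07, while 3151 of all 6324 genes lay above and 3150 below. From early to late 6 lay lower and 2 higher, with a median of -0.26, where 3246 of the 6324 genes lay lower.

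**Figure D1:**
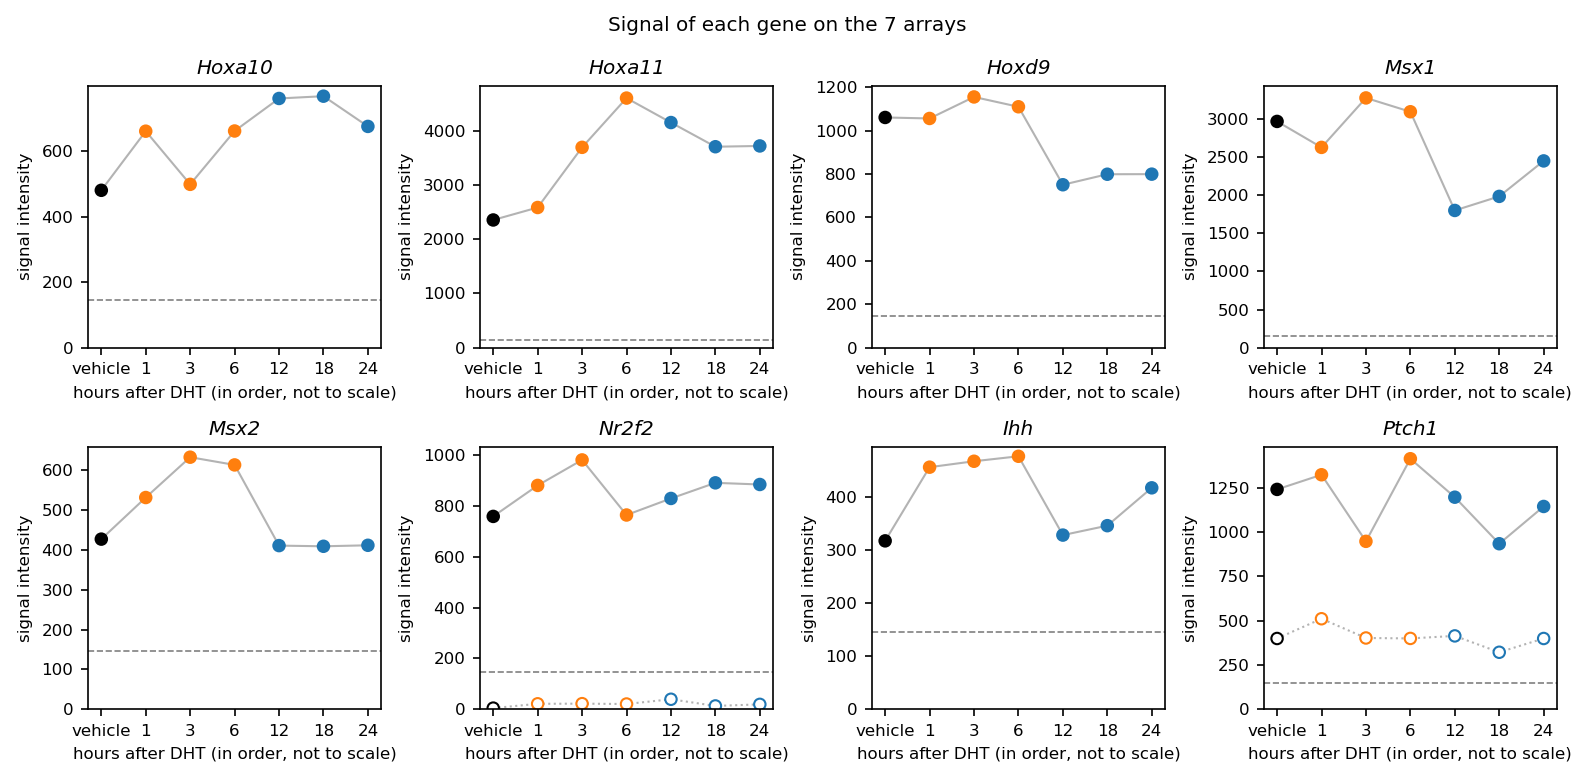
Signal intensity of each gene (y axis, linear, from 0) on the vehicle array (black), the early DHT arrays (orange) and the late DHT arrays (blue), with 1 array per point and times in order but not to scale. Filled points are the brightest probe set, open points the other probe set of Nr2f2 and Ptch1, and the dashed line is the floor of 145.9. Hoxd9, Msx1, Msx2 and Ihh have every late point below every early point, and Hoxa10 has every late point above every early point.

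Hoxa11 had a signal of 2355 on vehicle and of 2585, 3695, 4604, 4152, 3706 and 3721 at 1, 3, 6, 12, 18 and 24 h. All 6 DHT arrays were above vehicle, the 1 h array barely so, and the highest was at 6 h. In the same order the log2 ratios to vehicle were 0.13, 0.65, 0.97, 0.82, 0.65 and 0.66. Early and late arrays overlapped. The late mean was 0.71 ± 0.30 (SE) above vehicle on the log2 scale (95% interval -0.04 to 1.46, limma adjusted p = 0.452), and the early mean 0.58 ± 0.30 above it (adjusted p = 0.892).

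Hoxa10, the neighbour of Hoxa11 in the HoxA cluster, was likewise lowest on vehicle. Its signal was 481 on vehicle and 661.5, 499, 662, 761.5, 768.5 and 676 in time order. The 3 h array stood near vehicle, apart from the 1 and 6 h arrays. Every late array was above every early array, though the 24 h array exceeded the 6 h array by little. The late mean was 0.61 ± 0.21 (SE) above vehicle (95% interval 0.10 to 1.12, limma adjusted p = 0.358), and the late mean exceeded the early mean by 0.29 ± 0.15 (adjusted p = 0.560), or by 0.15 without the 3 h array.

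Hoxd9, of the HoxD cluster, kept near vehicle on the early arrays and lay lower on the late ones. It had a signal of 1061 on vehicle, 1057, 1156 and 1110.5 on the early arrays in time order, then 751, 799 and 799.8 on the late arrays. The late arrays lay close together and below the other 4 arrays. Late was 0.50 ± 0.07 (SE) below early on the log2 scale (difference -0.50, 95% interval -0.68 to -0.32), the smallest unadjusted p of the 8 genes in any contrast. It ranked 21 among the 8421 probe sets and did not pass in limma (adjusted p = 0.212). Against vehicle the late difference was -0.44 ± 0.10 (adjusted p = 0.219).

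The other Hox genes mostly lay below vehicle, early as well as late. Of 36 other Hox genes listed, 28 had a probe set of their own and 18 of these were above the floor. None passed in any contrast, and 2, 3 and 1 had an unadjusted p under 0.05 in the early-vehicle, late-vehicle and late-early contrasts. The shares of all probe sets were 6.33%, 11.7% and 10.2%. Of the 18, 14 had a late mean below vehicle and 2 above, with a median of -0.14. Their early mean was below in 14 and above in 4, with a median of -0.17. Of all 6324 genes, 3150 had a late mean and 3141 an early mean below vehicle. In the 18, late was above early in 6 and below in 10, with a median of -0.02, beside the -0.50 of Hoxd9. Hoxa6, among these 18, had -0.56 ± 0.19 (SE, limma adjusted p = 0.415), with every late array below every early array. Hoxa3 and Hoxa5 were above the floor only on vehicle, and Hoxc6 and Hoxc8 only at 1 h. For these genes the floor fixed on which side of vehicle a mean fell, or left it level. Hoxa3 had an unadjusted p under 0.05 against vehicle both early and late. Hoxd8 and Hoxd10 flank Hoxd9 in the cluster, and Hoxd11 follows Hoxd10. Hoxd8 had an early mean of 0.01 and a late mean of -0.19 ± 0.19 (SE) from vehicle (limma adjusted p = 0.752). Hoxd10 and Hoxd11 were below vehicle early (-0.41 and -0.31) and late, at -0.58 ± 0.14 (SE, limma adjusted p = 0.226) and -0.34 ± 0.16 (adjusted p = 0.484). Hoxa6 had the lowest late mean, -0.76 ± 0.26 (adjusted p = 0.367). Hoxa9, next to Hoxa10, had 0.02.

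With the members included, 21 Hox genes were above the floor, 15 with a late mean below vehicle and 4 above. With quantile normalization the split was 13 and 5 of 21, and with arrays centred on the median 12 and 6 of 20. Hoxa10 and Hoxa11 were the only 2 of the 21 above vehicle on all 3 late arrays. They stayed so with a floor at the 60th percentile and under both other scalings. With a floor at the 20th percentile, 4 of 26 were, Hoxb13 and Hoxc9 being added. Over the floor on all 7 arrays were 13 of the 21, and 10 of these had a late mean below vehicle. Whether Hoxa10 and Hoxa11 differed from the other Hox genes was not tested.

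**Figure D2:**
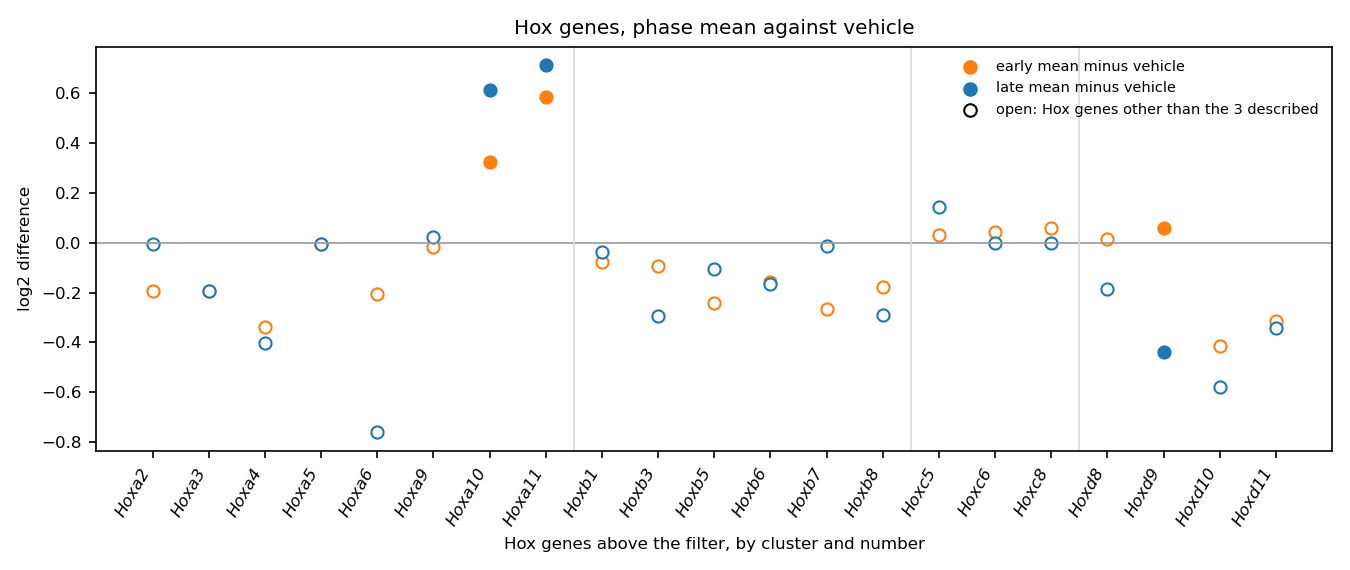
Log2 difference from vehicle (y axis) of the early mean (orange) and the late mean (blue) for the 21 Hox genes above the filter, ordered by cluster and number (x axis), with filled points for Hoxa10, Hoxa11 and Hoxd9. Hoxa11 (0.71) and Hoxa10 (0.61) have the highest late points and Hoxa6 (-0.76) the lowest.

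Msx1 and Msx2, the paired homeobox repressors, were both highest at 3 h and lower on the late arrays. Msx1 had a signal of 2972 on vehicle, 2630.4, 3280.3 and 3099 on the early arrays in time order, then 1802, 1987 and 2453 on the late arrays. The early arrays lay on either side of vehicle, and the late arrays were the 3 lowest, the 12 h array lowest of all. Late was below early by a log2 difference of -0.54 ± 0.14 (SE) (95% interval -0.89 to -0.18, limma adjusted p = 0.336) and below vehicle by -0.53 ± 0.20 (adjusted p = 0.410). The early mean was 0.01 ± 0.20 from vehicle, and its sign turned without the 3 h or the 6 h array.

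Msx2 differed from Msx1 in where vehicle stood. Its signal was 427 on vehicle, 532, 633 and 614 on the early arrays in time order, then 411, 409 and 412 on the late arrays. The early arrays were above vehicle and the late arrays just below it, within 0.06 on the log2 scale. The early mean was 0.47 ± 0.16 (SE) above vehicle (95% interval 0.08 to 0.86, limma adjusted p = 0.696). The late mean lay at -0.06 ± 0.16 from vehicle (adjusted p = 0.925) and at -0.53 ± 0.11 from the early mean (95% interval -0.80 to -0.25, adjusted p = 0.265). Whether Msx1 and Msx2 differed from each other was not tested.

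Ihh, the ligand, had its vehicle array lowest. The signal was 318 on vehicle, 457, 468 and 478 on the early arrays in time order, then 329, 346.5 and 418 on the late arrays. The early arrays lay within a narrow range above all the others, the 12 and 18 h arrays near vehicle, and the 24 h array between. Early was 0.56 ± 0.19 (SE) above vehicle (95% interval 0.10 to 1.02, limma adjusted p = 0.696), a 1.47-fold difference. Late was -0.37 ± 0.13 from early (95% interval -0.69 to -0.04, adjusted p = 0.438) and 0.19 ± 0.19 from vehicle (adjusted p = 0.734). The last value was 0.087 without the 24 h array and 0.073 with a floor at the 60th percentile.

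Ptch1, the receptor and a hedgehog target, showed no order by phase. Its brighter probe set had 1243 on vehicle and 1325.5, 949, 1416, 1199, 935 and 1146 in time order. The 3 h and 18 h arrays were low and the 6 h array high, so that early and late overlapped. The other Ptch1 probe set had 399 on vehicle and 511, 402, 399.7, 414, 321 and 399 in time order, with its highest value at 1 h and no dip at 3 h. Both were lowest at 18 h. Early against vehicle they gave -0.04 ± 0.26 (SE) and 0.12 ± 0.24 in limma (adjusted p = 1.00 and 0.961), and late against early -0.16 ± 0.18 and -0.21 ± 0.17 (adjusted p = 0.797 and 0.742). For the brighter probe set single arrays moved these values. Its early difference was 0.14 without the 3 h array. Its late-minus-early difference was -0.33 without 3 h, -0.093 without 1 h, -0.045 without 6 h and -0.049 without 18 h. The 95% interval for the brighter probe set in the early contrast was -0.68 to 0.61, which includes the size of the Ihh difference.

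Nr2f2, the stromal nuclear receptor, had the smallest late-minus-early difference of the 8 genes. Its signal was 759 on vehicle and 881, 981, 764, 829.6, 891 and 885 in time order. All 6 DHT arrays were above vehicle, but the 6 h array only just, and the 3 h array was highest. Early and late means were 0.20 ± 0.16 and 0.19 ± 0.16 (SE) above vehicle (limma adjusted p = 0.937 and 0.672), and late minus early was -0.01 ± 0.11 (95% interval -0.28 to 0.27). The early difference was 0.11 without the 3 h array, and with the mean of both probe sets, of which the other lay at the floor, the early and late differences were 0.099 and 0.097. The second Nr2f2 probe set lay under the floor on all 7 arrays, with signals of 3.8 to 38.7, and gives no level.

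Taken by pattern, 4 of the 8 genes had all late arrays below all early arrays (Hoxd9, Msx1, Msx2 and Ihh), against 6.61% of all probe sets. For 1 of the 8, Hoxa10, all late arrays were above, against 8.18%. Above vehicle on all 6 DHT arrays were 4 of the 8 (Hoxa10, Hoxa11, Ihh and Nr2f2), against 12.7%. The 8 genes were chosen with earlier results of these arrays in view, and the last count rests on the lone vehicle array. It was 3 with quantile normalization, where Nr2f2 at 6 h was not above vehicle, and 3 with a floor at the 60th percentile, where Ihh at 12 and 18 h was level with vehicle.

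**Figure D3:**
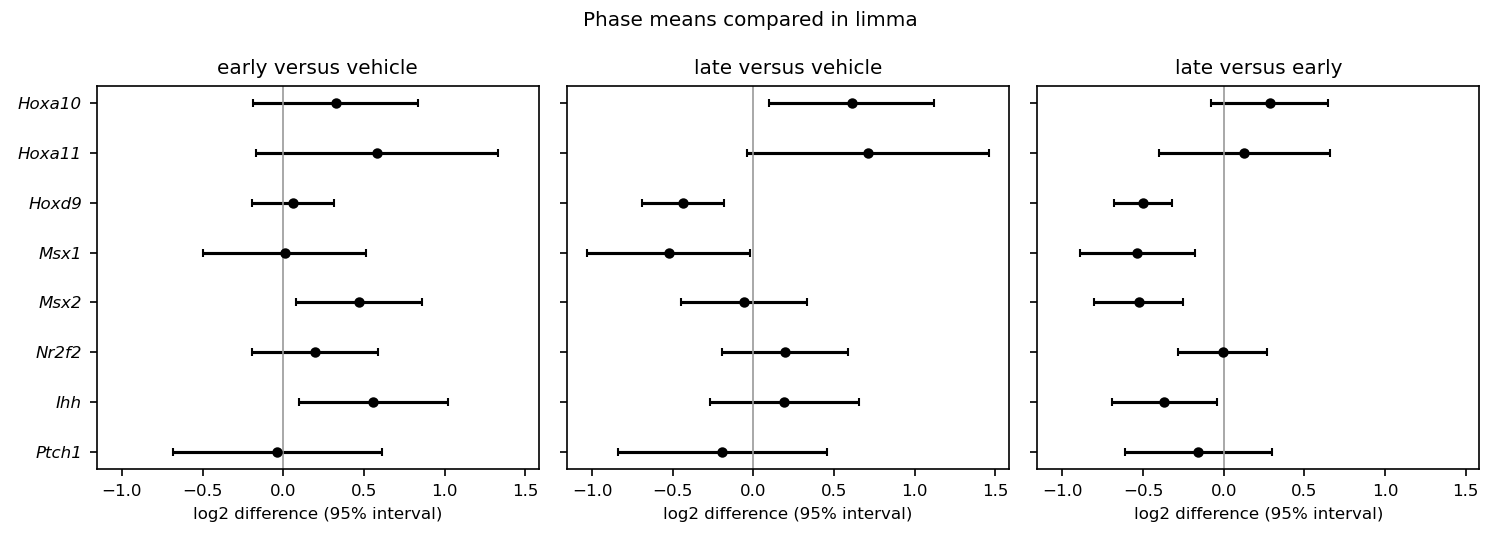
Log2 difference between phase means in limma (x axis) for the brightest probe set of each gene (rows), for early against vehicle, late against vehicle and late against early. Points are estimates and bars are 95% intervals, with 4 residual and 1.69 prior degrees of freedom. In the right panel the bars of Hoxd9, Msx1, Msx2 and Ihh lie below 0, though none of the 4 passed after adjustment.

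Among the other genes of the hedgehog pathway none passed. Of 20 listed, 12 had a probe set of their own and 11 were above the floor. Their early mean was above vehicle in 6 and below in 4 (median 0.07), and their late mean above in 5 and below in 6 (median -0.08). Late was above early in 3 and below in 8 (median -0.11). Cdon was above the floor only at 18 h, so its early mean was level with vehicle. At an unadjusted p under 0.05 there were 0, 0 and 1 of the 11 (6.33%, 11.7% and 10.2% of all probe sets). That gene was Gli2, a transcription factor that carries the signal. Gli2 had 274 on vehicle, 326.5, 349.7 and 479.5 on the early arrays in time order, then 210.3, 240.3 and 259.7 on the late arrays. Its late arrays lay below vehicle and its early arrays above, with a late-minus-early difference of -0.69 ± 0.18 (SE) (limma adjusted p = 0.336). Gli1, itself a hedgehog target, was highest at 6 h, with 1420.3 against 968 on vehicle, and had a late-minus-early difference of -0.25 ± 0.24 (adjusted p = 0.754). Smo, the transducer that Ptch1 holds back, lay between -0.22 and 0.00 of vehicle on the log2 scale. Shh had 3 arrays under the floor, those of vehicle, 6 h and 12 h. Its signal was 55.8 on vehicle and 240, 269.3, 201 and 252.8 at 1, 3, 18 and 24 h. At those times its log2 ratios of 0.72, 0.88, 0.46 and 0.79 are lower limits. Its early mean was 0.53 ± 0.43 (SE) above vehicle (limma adjusted p = 0.937).

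Genes around Ihh and COUP-TFII in the uterus gave the same count of calls. Of 21 listed, 19 had a probe set of their own and 14 were above the floor, and 0 passed in the 3 contrasts. The early mean was above vehicle in 9 and below in 3 (median 0.07), and the late mean above in 7 and below in 7 (median -0.03). Late exceeded early in 4 and was below it in 9 (median -0.08). Fgf18 was above the floor only on vehicle, Ncoa2 only at 24 h and Fgf1 only at 18 and 24 h. For these genes the floor fixed on which side of vehicle a mean fell, or left it level. At an unadjusted p under 0.05 there were 0, 0 and 3 (6.33%, 11.7% and 10.2% of all probe sets), the last being Pgr, Wnt4 and Cebpb. Pgr, the progesterone receptor gene upstream of Ihh, had 357 on vehicle, 461, 536 and 385 on the early arrays in time order, then 298, 240.1 and 225 on the late arrays. Late arrays were below vehicle and early arrays above it (late minus early -0.86 ± 0.18 (SE), limma adjusted p = 0.265). Wnt4, a secreted signal that the decidua needs, was at least 2-fold from vehicle at 4 of the 6 times. Its log2 ratio was 1.88 at 3 h and 1.64 at 6 h, and it was under the floor at 18 and 24 h, where -1.02 is an upper limit of the ratio.

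**Figure D4:**
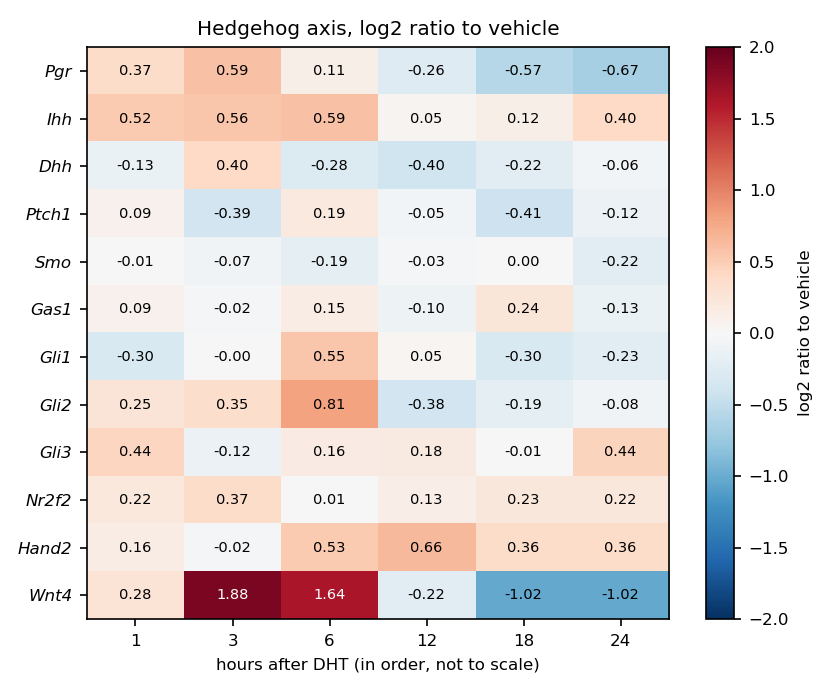
Log2 ratio to the vehicle array (colour and printed value) of 12 genes around hedgehog signalling (rows) at each time after DHT (columns), 1 array per column. Ihh is 0.52 to 0.59 above vehicle at 1 to 6 h, Ptch1 lies on both sides of vehicle early and between -0.05 and -0.41 late, and Wnt4 at 18 and 24 h is limited by the floor.

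Partners of Hox proteins and other homeobox genes of the female tract numbered 20, of which 15 had a probe set of their own, all above the floor. None passed, and 1, 1 and 2 had an unadjusted p under 0.05 in the 3 contrasts (6.33%, 11.7% and 10.2% of all probe sets). Their late mean was below vehicle in 11 and above in 4 (median -0.19), and late was below early in 12 and above in 3 (median -0.05). For early against vehicle 10 were lower and 5 higher (median -0.21). The gene with an unadjusted p under 0.05 against vehicle, early and late, was Dlx6. It had 184.1 on vehicle and was under the floor at 1, 6, 12 and 18 h, so the floor limits its differences. Meis1, a cofactor that binds DNA with Hox proteins, had a late-minus-early difference of 0.50 ± 0.20 (SE) (limma adjusted p = 0.483), and Pbx2, another cofactor, -0.44 ± 0.12 (adjusted p = 0.353).

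Signals of the female tract and genes linked to Hoxa10 or Msx numbered 18, of which 12 were above the floor and 6 under it on every array. Itgb3 and Igfbp1, linked to Hoxa10, were among those under the floor. Of the 12, 10 had a late mean below vehicle and 2 above (median -0.32), and 9 had an early mean below and 3 above (median -0.16). Late was below early in 8 and above in 4 (median -0.05). None passed, and 1, 3 and 2 had an unadjusted p under 0.05 (6.33%, 11.7% and 10.2% of all probe sets). Against vehicle these were Cdh1 early, and Bmp4, Cdh1 and Sfrp2 late. Late against early they were Wnt4 and Sfrp2. Wnt4 is also in the list around Ihh and COUP-TFII and was counted in both. Ptger4, a prostaglandin receptor gene linked to Hoxa10, had an early mean of -0.64 ± 0.40 (SE) and a late mean of -0.72 ± 0.40 from vehicle (limma adjusted p = 0.920 and 0.542).

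Of 7 uterine markers listed, 6 had a probe set: Esr1, Pgr, Hand2, Wnt4, Hoxa10 and Hoxa11. All 6 had mean signals above the floor, though Wnt4 was under it at 18 and 24 h. This is a weak check of the tissue label, as 6324 of all 8252 genes were above the floor. Hoxa10 and Hoxa11 are also among the 8 genes described. Of 4 ovarian genes with a probe set, Inha and Zp3 were under the floor on every array, Star was above it on vehicle and at 24 h, and Gdf9 was above it on every array. The ovarian sum was 704.9 on vehicle, 605.3 to 659.9 early and 505.7 to 674.3 late. In pooled uteri fewer cells of a type and less RNA per cell cannot be told apart. Summed over 9 epithelial markers, the signal was 12734 on vehicle, 11489 to 13382 early and 11817 to 14021 late. The early and late ranges of this sum overlapped. Among the 9, the early mean was above vehicle in 4 and below in 5, and the late mean above in 5 and below in 4. Cdh1 was below vehicle on all 6 DHT arrays (early mean -0.37, late mean -0.38). Summed over 10 stromal markers the signal was 50193 on vehicle, 49600.3 to 52530.1 early and 56127 to 73672 late. The collagen genes Col1a1, Col1a2 and Col3a1 had every late array above every early array, Thy1 had every late array below, and Vim was under the floor. Without the 3 collagen genes the stromal sum was 35437.5 on vehicle, 29011.3 to 37425.1 early and 27333 to 38716.5 late, so that early and late overlapped. Over 8 smooth muscle markers it was 41390.4 on vehicle, 37609 to 39793 early and 49148 to 65059.6 late.

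Late arrays were above early arrays in the smooth muscle sum, and in the stromal sum only with its collagen genes, beside the late values of Hoxa10 and of the 4 genes that lay lower. Late arrays were also above early arrays in the skeletal muscle sum, only with Acta1, and below them in the adipocyte sum. All 8 smooth muscle markers had a positive late-minus-early difference, as had 3063 of all 6324 genes. At an unadjusted p under 0.05 there were 8 (10.2% of all probe sets), and 0 were called. In the same contrast 4 of 9 stromal, 2 of 7 leukocyte, 2 of 4 adipocyte and 1 of 4 skeletal muscle markers above the floor were under 0.05. Of the epithelial and the endothelial markers 0 were. Endothelial markers (7) gave 4668 on vehicle, 4632 to 5096 early and 3957 to 4897 late. Leukocyte markers (9, with Ptprc and Cd3e under the floor) gave 9258.5, 7999.8 to 8648 and 6949 to 8397. Adipocyte markers (4) gave 4006.5, 3560.4 to 4581 and 2827 to 3432. Skeletal muscle markers (5, with Tnnt3 under the floor) gave 1178, 865.5 to 1813 and 3159.9 to 3799, and without Acta1 807, 556 to 660.6 and 579 to 739. Their part in the values of the 8 genes was not tested.

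**Figure D5:**
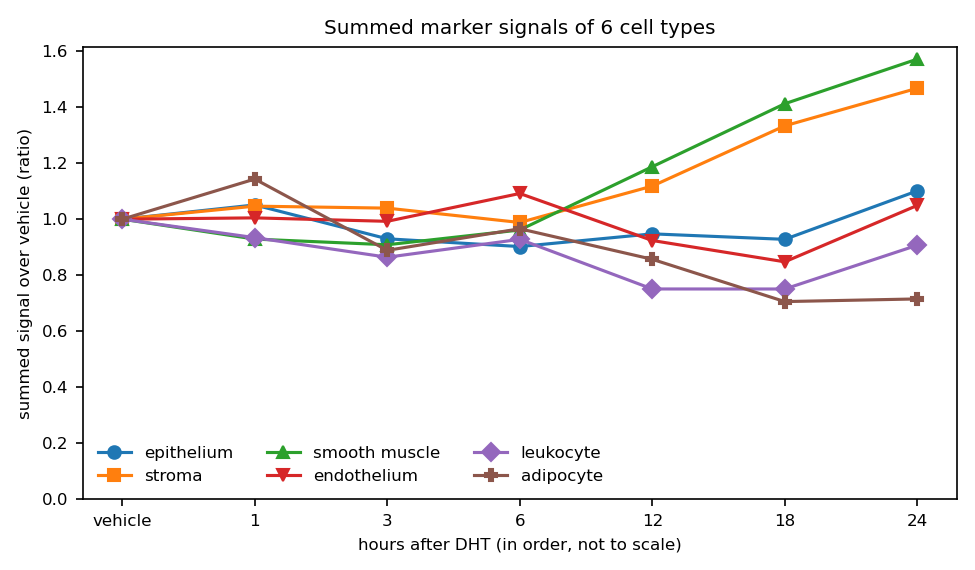
Summed signal of the markers of 6 cell types on each array divided by the vehicle array (y axis, ratio, from 0), with times in order but not to scale. At 24 h smooth muscle reaches 1.57 and stroma, led by 3 collagen genes, 1.47, epithelium stays between 0.902 and 1.10 throughout, and adipocyte markers are at 0.706 at 18 h.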

How the data were processed

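RNA from pooled uteri was hybridized to Affymetrix U74Av2 arrays, 1 per group. The authors deposited 1 linear signal intensity per probe set. The submitters' processing notes name MAS5 without a version. Array medians lay between 227.4 and 237.0 and trimmed means (2% cut at each end) between 500.21 and 500.23, so the authors' scaling was kept. Of 12422 probe sets that are not controls, 10833 named 1 gene, 396 several and 1193 none (platform table, symbols updated by gene ID with RefSeq on GRCm38.p6). Between 39.4% and 40.8% of an array's values lay under the floor of 145.9, the 40th percentile. Values were raised to it, log2 was taken, and 8421 probe sets with a mean above it were tested with limma 3.58.1 in R 4.3.3, with a variance trend, two-sided, and Benjamini-Hochberg adjustment at 0.05. The fit takes the single vehicle array to spread as the DHT arrays do, p-values measure only the spread between these arrays, and the number of arrays limits the precision. The code was tested on simulated data. Where several probe sets named a gene, the brightest stood for it.

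The rule named all 8 genes, genes of the pathway lists that passed in a phase test or were at least 2-fold from vehicle at 2 or more times, and neighbours or family members that a sentence on a member needed. The rule for genes of like pattern needed a 2-fold range, which 0 of the 8 reached. Pooled correlations of 4 pairs of the 8 genes (Ihh with Ptch1, Ihh with Nr2f2, Msx1 with Msx2, Hoxa10 with Hoxa11) had been planned and are not given, because in each pair a gap of 46.1% to 60.1% of a gene's range split the arrays into separate ranges. Members, lists, tests and alternatives were chosen with earlier results of these data known. Gli2, Gli1, Smo, Shh, Cebpb, Hoxa6, Hoxa9, Meis1, Pbx2, Itgb3, Igfbp1, Ptger4 and single marker genes were singled out after their values were seen. The same holds for Hoxa3, Hoxa5, Hoxc6, Hoxc8, Dlx6, Cdon, Fgf18, Ncoa2, Fgf1, Cdh1, Bmp4 and Sfrp2.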

Additional observations from a re-analysis of the deposited data

How the results depend on the processing

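No member passed in any contrast under any alternative that was run, with 0.127 the lowest adjusted p in limma over 320 combinations of gene, contrast and setting. Direction held in 311 and turned in 9, all at small differences. Early against vehicle, Ptch1 gave 0.043 with the mean of its probe sets and -0.15 to 0.14 leaving out an array (0.14 without 3 h), and Msx1 -0.058 to 0.10 (-0.058 without 3 h, -0.017 without 6 h). Late against early, Nr2f2 gave 0.0051 with quantile normalization and -0.099 to 0.081 leaving out an array (0.0031, 0.081 and 0.028 without 1, 3 or 12 h). Hoxa11 gave -0.098 to 0.32 leaving out an array, the lowest without 1 h. The members at least 2-fold from vehicle (0) numbered 1 at 6 h with arrays centred on the median (Hoxa11), and at 1.5-fold there were 1, 2, 3, 2 and 1 at 3, 6, 12, 18 and 24 h.

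The 4 members with all late below all early arrays were the same under both other floors, both other scalings and the mean of probe sets. This check, the count above vehicle on all 6 DHT arrays by setting, and the marker sums without collagen genes or Acta1 were chosen after seeing the data.

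The count of called probe sets on the whole array, not these genes, moved most. For early against vehicle (23) it was 13 with quantile normalization, 14 with centring, 121 without the filter, 0 without the variance trend, and 8 to 55 leaving out an array (8 without 6 h, 11 without 12 h, 12 without 18 h, 55 without 3 h). For late against vehicle (26) it reached 42 when the floor was the 60th percentile, and was 15, 16, 137 and 0 in the same order, and 0 to 73 leaving out an array (0 without 12 h or 18 h, 10 without 6 h, 73 without 3 h). For late against early (0) it was 0 to 1, the 1 without 6 h. Of 240 single-time ratios of members, 6 moved by more than the residual SD, 4 of them of Ihh with the floor at the 60th percentile (0.35, 0.38, 0.41 and 0.22 at 1, 3, 6 and 24 h). Low signals limit Ihh, Shh, Wnt4 at 18 and 24 h and the second Nr2f2 probe set. Alternatives planned for the pairs of members were not run, as the pairs are not given.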
